A study of Mus musculus with 3 samples.

Results

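The glandular epithelium that carries the implantation serine proteases Prss28 and Prss29 was examined in the mouse uterus at pregnancy day 7.5. A barcode, the tag of 1 droplet and so usually of 1 cell, was counted as protease gland when it held at least 20 Prss28 and Prss29 UMIs per 10000 UMIs. A UMI is a unique molecular identifier and counts 1 captured transcript. The barcode also had to have at least 500 detected genes, at most 20% mitochondrial UMIs, at most 1 UMI of the leukocyte gene Ptprc and fewer than 5 UMIs per 10000 of the decidual gene Tdo2. The rule found 58 barcodes among the 1825 that passed the limits on genes and mitochondrial UMIs, a share of 3.18% (exact 95% interval 2.42 to 4.09). They were set against 334 other epithelial barcodes, defined by at least 3 UMIs summed over Epcam, Cdh1, Cldn3 and Cldn4, and against all 1767 other barcodes that passed the quality limits.

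The series holds 3 single-cell samples of whole uterus at day 7.5, taken from females kept to 8 weeks of age and mated with stud males. The library analysed is the 1 whose labels give no genotype, strain or number of animals. Its matrix also holds the features sfGFP-Myc, with 25 UMIs in 16 barcodes, and iCre, with 1 UMI. Both stood at 0 in the protease gland barcodes, but these totals are too low for a 0 there to set the barcodes apart. The uterus was dissociated with trypsin and loaded for droplet capture of transcript 3′ ends, with no sorting step named. The other 2 samples, with the genotypes Prl8a2icre/+ Sun1-GFPLsL/+ and Sun1-GFPLsL/+, are not analysed here. With 1 library there is no replicate and no test, and every interval below covers counting error only.

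Uterine glands are coiled epithelial tubes that open into the lumen, and in the mouse their secretions are needed for implantation and decidualization. Prss28 and Prss29 encode the secreted trypsin-like proteases known as implantation serine proteinases 1 and 2, which uterine glands make under progesterone. Spink1 encodes a small secreted inhibitor of trypsin. Foxa2 encodes the forkhead factor that marks uterine glands in the adult mouse, and Lif encodes the cytokine that glands release around attachment.

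Both protease genes lie on chromosome 17 on the plus strand, Prss28 at chr17:25308646-25311876 and Prss29 at chr17:25318654-25322684 (GRCm38), with 6777 bases between them. Their promoters are shown because this neighbouring pair chose the barcodes and moved together among the 22 deep ones, as described below. Each sequence runs from 250 bases before the transcription start to 50 after it (RefSeq, GRCm38.p6, plus strand), at chr17:25308396-25308695 for Prss28 and chr17:25318404-25318703 for Prss29. Capitals mark matches to the motifs searched.
Prss28: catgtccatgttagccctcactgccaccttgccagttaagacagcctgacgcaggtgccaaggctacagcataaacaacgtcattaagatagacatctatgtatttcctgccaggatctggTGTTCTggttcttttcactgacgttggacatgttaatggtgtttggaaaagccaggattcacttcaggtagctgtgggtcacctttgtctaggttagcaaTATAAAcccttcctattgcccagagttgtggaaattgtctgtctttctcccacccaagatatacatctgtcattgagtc
Prss29: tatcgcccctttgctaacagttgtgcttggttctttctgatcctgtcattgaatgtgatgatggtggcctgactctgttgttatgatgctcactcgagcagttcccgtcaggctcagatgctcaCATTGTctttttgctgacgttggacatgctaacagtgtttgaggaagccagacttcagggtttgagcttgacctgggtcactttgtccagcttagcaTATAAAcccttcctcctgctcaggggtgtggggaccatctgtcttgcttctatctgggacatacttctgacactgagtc
The 2 promoters were 74.2% identical over aligned bases, with 207 identical bases, 72 mismatches and 42 gap positions. Both held TATAAA on the plus strand at position -29, a motif present in 8.32% of 32851 RefSeq mouse promoters of the same length. The hexamer TGTTCT of the progesterone and glucocorticoid receptor element, searched on both strands, was found in Prss28 at -129, and 19.0% of promoters held it. The SOX hexamer ACAATG, searched on both strands, was found in Prss29 at -126 on the reverse strand, and 12.6% of promoters held it. No match to the forkhead words TGTTTAC (3.65% of promoters) and TGTTTGC (5.07%) or to the STAT word TTCNNNGAA (8.30%) was found in either window. These matches describe letters, not bound sites. The annotated transcripts of the 2 genes shared 0 words of 31 bases, so a read of that length from 1 gene had no exact copy in the other.

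The library held 2775 barcodes with 16848794 UMIs. The protease gland barcodes held 446464 UMIs, with a median of 3270 per barcode (782 to 34160) and 1228 detected genes, against a median of 15636 UMIs and 3824 genes in other epithelium. Their median mitochondrial share was 5.81%, against 4.49% in other epithelium. The demand for 3 epithelial UMIs favours deep barcodes: 28 of the 58 protease gland barcodes met it themselves, and 15 held 0 of these UMIs. Of the other epithelial barcodes, 86 exceeded the Ptprc or Tdo2 limit of the gland rule, and the 248 that did not, called limited epithelium below, were used as a second comparator chosen after the data had been seen. Limited epithelium had a median of 7555.5 UMIs.

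The label was set beside listed markers. Of the 6 given for the glands, Prss28 and Prss29 chose the barcodes, and the other 4, Spink1, Scgb3a1, Agr2 and Car12, were higher in protease gland than in both epithelial comparators. These 4 were listed with earlier results of these data known, so their level does not test the label. Foxa2 was also higher than in both comparators, with 49 UMIs in 15 protease gland barcodes, while Ttr, a further gland gene, stood at 0 and Cxcl15 at 3 UMIs. The 7 luminal markers summed to 220 UMIs, or 493 CPM (counts per 1000000 UMIs), in protease gland, against 200 CPM in other epithelium and 255 CPM in limited epithelium, and 167 of the 220 lay in 1 barcode. Of these, Calb1, Wnt7a and Krt13 stood at 0 in protease gland, against 1.64, 4.93 and 0 CPM in other epithelium, levels too low for a 0 at this depth to set the groups apart. Markers of other lineages held few summed UMIs over the 58 barcodes: 0 for yolk sac endoderm (5 genes) and red cells (4 genes), 1 for trophoblast (6 genes, Prl3d1, Prl3b1, Tpbpa, Hand1 and Plac1 at 0), 3 each for macrophages and endothelium, 4 for ciliated cells, 5 for smooth muscle and pericytes, 11 for NK cells (Nkg7 and Klrb1c at 0) and 16 for decidua (Prl8a2 at 0). In CPM these sums were not all below limited epithelium. They were higher for NK cells (24.6 against 8.14), ciliated cells (8.96 against 6.78) and trophoblast (2.24 against 0.814). They were close for endothelium (6.72 against 5.42) and macrophages (6.72 against 6.24). They were lower for decidua (35.8 against 65.4), smooth muscle and pericytes (11.2 against 19.8), yolk sac endoderm (0 against 1.63) and red cells (0 against 0.542). Leukocyte markers summed to 22 UMIs, or 49.3 CPM, against 673 CPM in other epithelium and 25.8 CPM in limited epithelium. Their level per barcode ran from 0 to 54.9 per 10000 in protease gland, against 0 to 76.9 in other epithelium. The limits on Ptprc and Tdo2 in the rule fix part of the low leukocyte, NK and decidual sums, so these do not test the label. Stromal markers summed to 254 UMIs, of which 199 lay in 1 barcode, and mesothelial markers to 40, of which 39 lay in 1 barcode. Both sums were above the comparators in CPM. Stromal markers stood at 569 CPM, against 280 in other epithelium and 156 in limited epithelium. Mesothelial markers stood at 89.6 CPM, against 67.7 and 59.4. Of these UMIs, 241 stromal and 39 mesothelial ones lay in the 10 barcodes below 100 protease UMIs per 10000. The 48 other barcodes held 13 and 1, or 30.5 and 2.35 CPM, below both comparators. Leukocyte markers stood at 485 CPM in the 10 and 28.2 CPM in the 48. The 7 epithelial markers were found in 3 of the 10, so the rule alone gives most of these their name.

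The values that chose the barcodes are given as a description. Prss28 and Prss29 together ran from 20.9 per 10000 UMIs over a median of 809 to 3632. They fell into 2 ranges: 48 barcodes held at least 127 per 10000, and 10 held between 20.9 and 43.8. The 3 barcodes just inside the threshold held 20.9, 21.6 and 22.8 per 10000, and the 3 just outside it 19.9, 18.7 and 18.6. In 9 of the 10 low barcodes the call rested on 2 to 8 protease UMIs, and these 10 held 4.62% of the UMIs of the whole set. Of the 10, 8 held 0 epithelial UMIs, and 7 lay below the 28.9 per 10000 reached by the highest Ptprc barcode without epithelial UMIs. The 48 others alone made up 2.63% of the barcodes that passed the quality limits (1.95 to 3.47). The other 1 held 33 protease UMIs among 8222, beside 124 UMIs of the matrix gene Dcn, 32 of the collagen gene Col3a1 and 9 of the mesothelial gene Msln. A further 12 barcodes that passed the quality limits reached the protease threshold but were left out, 9 for Ptprc and 3 for Tdo2, and 5 of them held at least 100 protease UMIs per 10000.

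**Figure D1:**
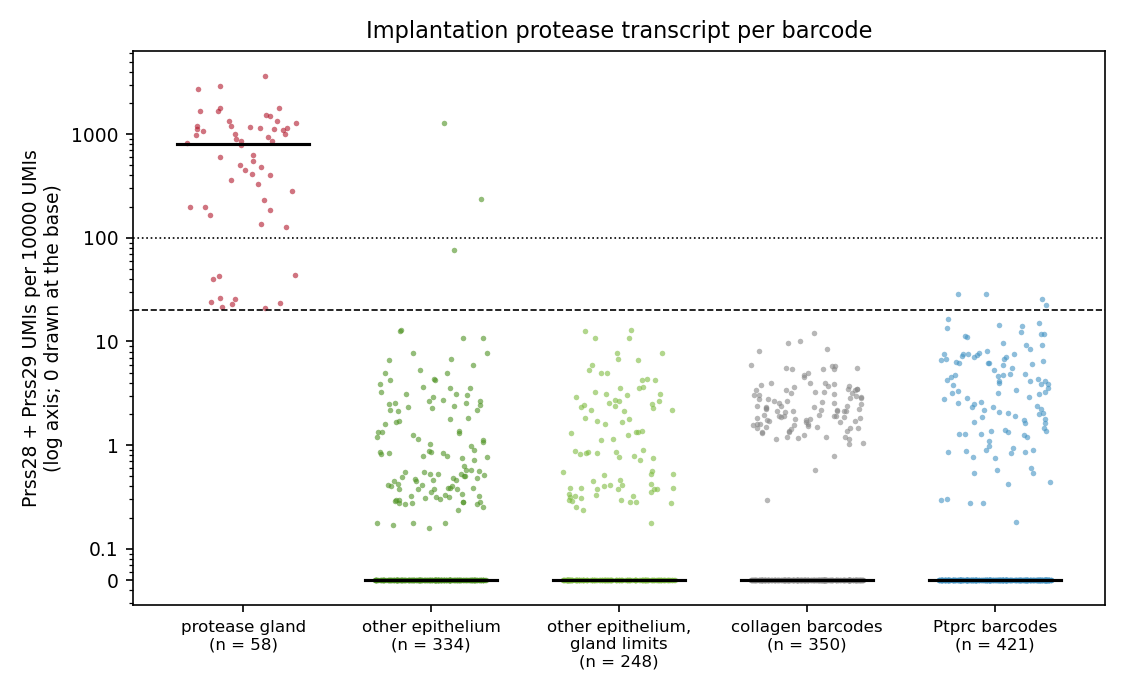
Prss28 and Prss29 UMIs per 10000 UMIs of each barcode (log axis, 0 at the base) in 58 protease gland barcodes, other epithelium, limited epithelium (gland limits), collagen-rich barcodes and Ptprc barcodes. Bars are medians, the dashed line is the threshold of 20, and the dotted line is 100. The protease gland median is 809 and the other medians are 0, and no protease gland barcode lies between 43.8 and 127.

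The proteases and Spink1 made up a large share of the captured transcripts. Prss28, Prss29 and Spink1 together gave 66342 UMIs, or 14.9% of all UMIs in protease gland. Prss29 stood at 76102 CPM (75295 to 76916), against 436 CPM (419 to 453) in other epithelium and 26.0 CPM in limited epithelium. Prss28 stood at 31700.2 CPM (31180 to 32227), against 195 CPM (184 to 206) in other epithelium and 16.5 CPM in limited epithelium. In other epithelium 3678 of the 3835 protease UMIs lay in the 86 barcodes over the Ptprc or Tdo2 limit, so the ratios moved with the comparator: 175 and 2923 for Prss29, 163 and 1916 for Prss28. A barcode within those limits that reaches 20 per 10000 is protease gland by the rule, so limited epithelium lies below 20 by construction (12.9 at most) and the ratios to it are set by the choice of barcodes. The 58 barcodes held 86.2% of all protease UMIs in the library. In the 10 other listed genes of the tryptase family and its chromosome 17 neighbourhood, among them Prss34, Tpsab1, Tpsb2 and Tpsg1, protease gland held 1 UMI in all, of Prss33.

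Spink1, which the rule did not use, stood between the 2 proteases. Its level was 40792 CPM (40201 to 41389) in protease gland, against 424 CPM (408 to 441) in other epithelium, a ratio of 96.2 (92.3 to 100.3), and against 11.7 CPM in limited epithelium, a ratio of 3498 (2596 to 4835). It was carried by 45 of the 58 barcodes, and 1 barcode held 45.0% of its UMIs. Without that barcode the ratio to other epithelium was 57.3. The spread between barcodes was wide, as the plot of single barcodes shows.

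**Figure D2:**
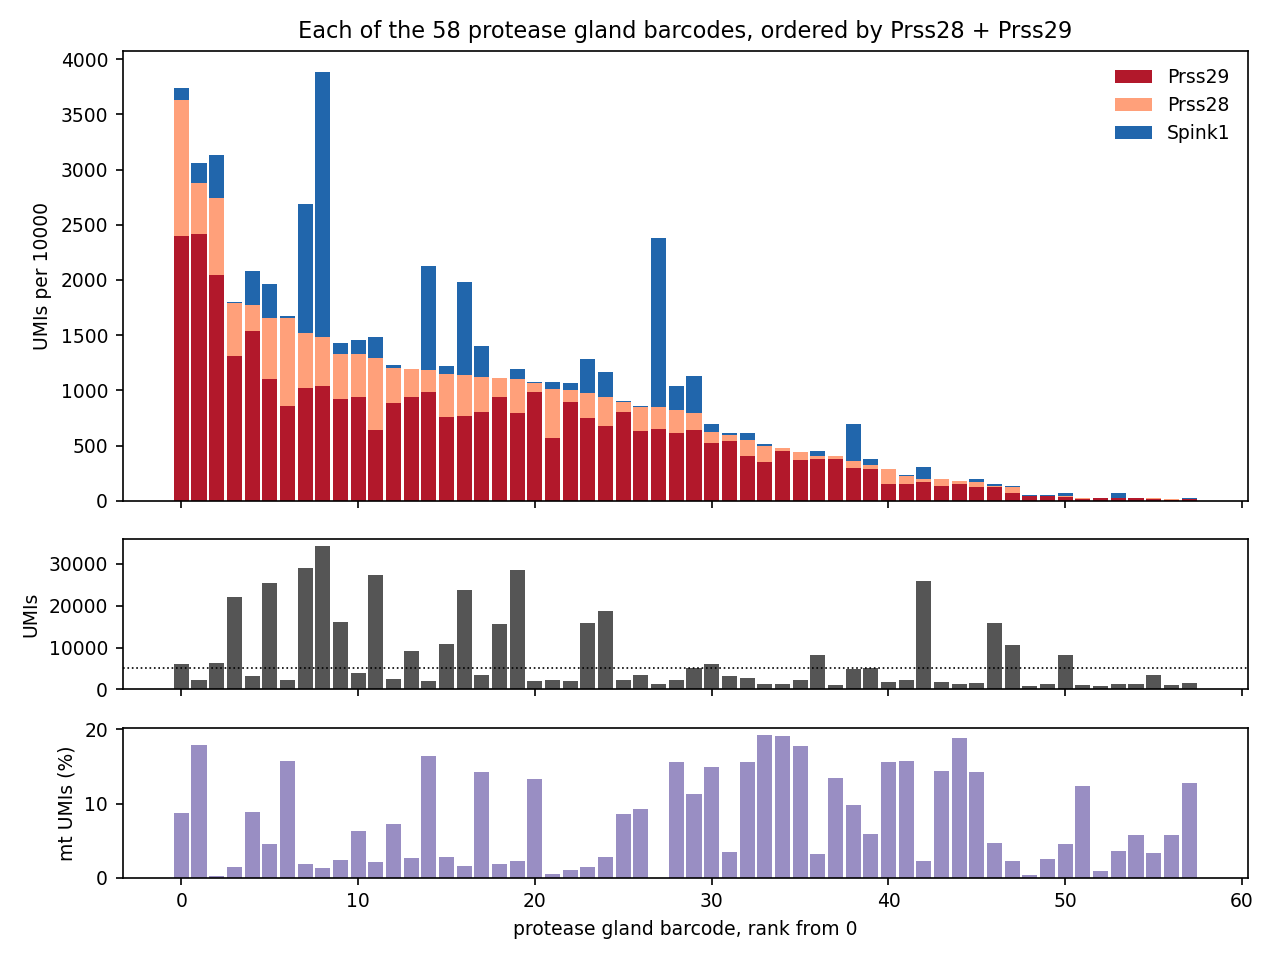
Each of the 58 protease gland barcodes in order of Prss28 plus Prss29, with Prss29, Prss28 and Spink1 UMIs per 10000 stacked (top), total UMIs with a dotted line at 5000 (middle) and mitochondrial share in percent (bottom). Spink1 follows the protease order only loosely, and the highest Spink1 bar is 2398 per 10000.

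Free transcript was measured in barcodes that should lack these genes. Each barcode was thinned to 2000 UMIs, which left 40 protease gland barcodes (18 shallower ones out) and 324 of other epithelium (10 out). Prss29 was then found in 40 of 40 protease gland barcodes, which follows from the rule. It was found in 28 of 324 other epithelial barcodes (8.64%, 5.82 to 12.2), 10.5% of 325 collagen-rich barcodes and 7.19% of 292 Ptprc barcodes, and before thinning in 29.0% of other epithelium. Spink1 was found in 36 of 40 protease gland barcodes (interval 76.3% to 97.2%), against 4.63% of other epithelium (2.61 to 7.52) and 6.15% of collagen-rich barcodes. The shares in other epithelium thus lay near those of collagen-rich and Ptprc barcodes, but its summed levels did not. Prss29 stood at 436 CPM in other epithelium, against 51.3 CPM in collagen-rich and 44.9 CPM in Ptprc barcodes, and Spink1 at 424 CPM, against 25.4 and 20.1 CPM. Limited epithelium lay below both of these groups, with Prss29 at 26.0 CPM and Spink1 at 11.7 CPM. Tdo2 barcodes (at least 5 Tdo2 UMIs per 10000, 0 epithelial UMIs, at most 1 Ptprc UMI) held 397 CPM of Prss29 and 46.9 CPM of Spink1. The highest of the other epithelial barcodes held 1280 protease UMIs per 10000. The 86 barcodes over the Ptprc or Tdo2 limit held 3678 of the 3835 protease UMIs and 2536 of the 2579 Spink1 UMIs of other epithelium.

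Over all genes, those with 50 or more UMIs summed over both groups were compared, and a gene was called past a 2-fold ratio of CPM. Against other epithelium 9353 genes were compared, of which 812 (8.68%) were higher and 2012 (21.5%) lower in protease gland, with a median log2 ratio of -0.18. Prss28 and Prss29 help to fill the protease gland total, which lowers the CPM of every other gene there. With both and the mitochondrial genes out of the totals, 1087 genes were higher and 1723 lower. A ratio slightly below 1 carries this limit. Against limited epithelium 615 of 7678 genes (8.01%) were higher and 1316 (17.1%) lower, with a median of -0.15. Against all other barcodes 1005 of 12190 (8.24%) were higher and 4001 (32.8%) lower, with a median of -0.44. The counts over gene lists below stand beside these shares, and a share near them is not a result about the list. Both epithelial comparisons share the protease gland barcodes and 248 comparator barcodes. The counting interval excluded 1 for 754 of the 812 higher genes and for 1463 of the 2012 lower ones. In 30 of the 812, 1 barcode held at least 50% of the UMIs in protease gland. With the leading barcode of each gene left out, 292 of the 812 fell below 2-fold, 12 of them below 1. Against limited epithelium 219 of the 615 higher genes fell below 2-fold in this way.

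**Figure D3:**
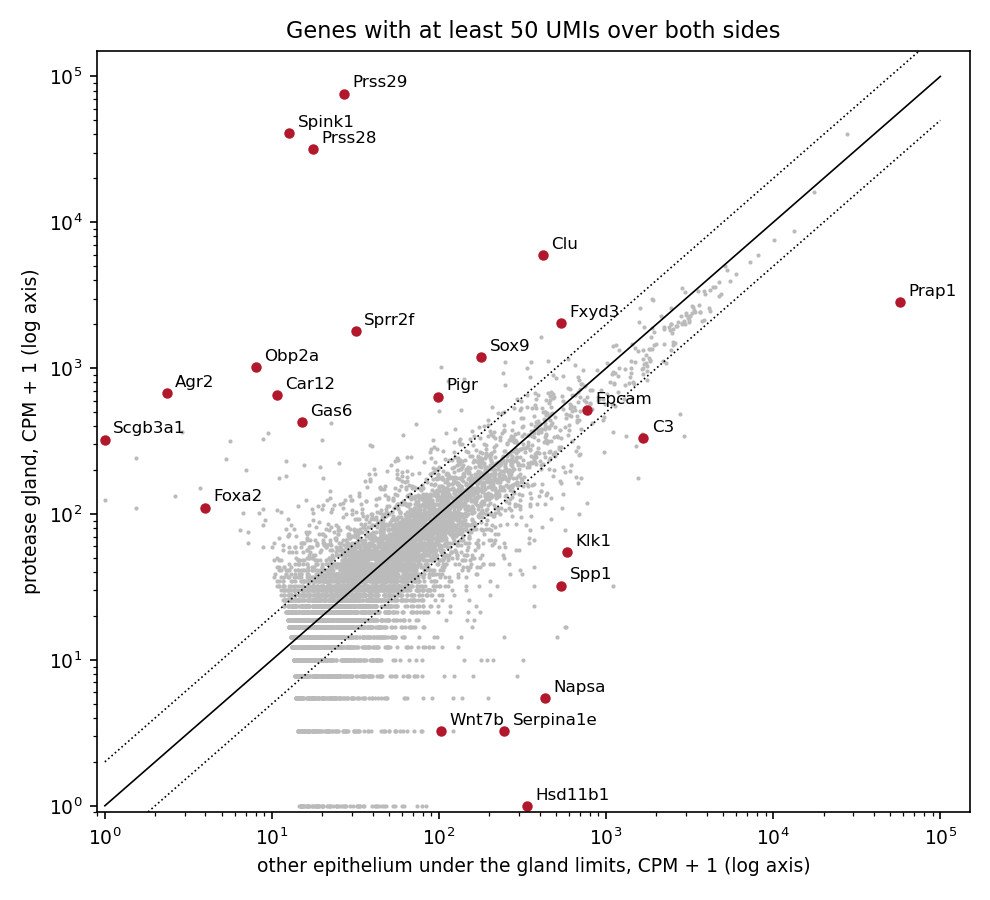
CPM plus 1 of each gene with at least 50 UMIs over both sides in protease gland (vertical, log axis) and in limited epithelium (horizontal, log axis), with named genes in red, equality as a solid line and 2-fold as dotted lines. Prss29, Spink1 and Prss28 lie farthest above the line, and Prap1, Napsa and Hsd11b1 are among the genes far below it.

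Secreted gland products stood on both sides. Of 17 listed products that could be compared, 10 were higher and 5 lower in protease gland than in other epithelium, with a median log2 ratio of 1.33 beside -0.18 over all genes. Against limited epithelium 7 of 16 were higher and 5 lower, with a median of 0.73 beside -0.15. Scgb3a1, a small secretoglobin of mucosal surfaces, held 144 UMIs in 28 protease gland barcodes, against 6 UMIs in other epithelium and 0 in limited epithelium. Its level was 323 CPM (272 to 380) against 0.986 CPM in other epithelium, a ratio of 327 (147 to 906). Of its UMIs, 33.3% lay in 1 barcode, and the ratio was 231 without that barcode. Against limited epithelium Scgb3a1 was at least 396-fold higher, taking 3 counts over that group as the limit. Clu, the secreted chaperone clusterin, stood at 5942 CPM (5718 to 6173) against 367 CPM in other epithelium, a ratio of 16.2 (15.3 to 17.1), and was detected in all 22 deep barcodes described below; it was singled out after its values were seen. Guca2b, the precursor of the gut peptide uroguanylin, stood at 1633 CPM against 303 CPM, a ratio of 5.38 (4.93 to 5.87), and was likewise chosen after its values were seen. Outside that list, Hp, the haemoglobin-binding protein haptoglobin, stood at 363 CPM against 7.73 CPM in other epithelium (ratio 47.0, 33.8 to 66.4) and 1.90 CPM in limited epithelium (ratio 191).

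Other products were lower. Prap1, a proline-rich acidic secreted protein abundant in pregnant mouse uterus, stood at 2829 CPM in protease gland against 44383 CPM in other epithelium, 15.7-fold lower, and 20.2-fold lower than in limited epithelium. In protease gland 1 barcode held 41.1% of its UMIs, the ratio to other epithelium was 0.0389 without it, and barcodes with collagen and no epithelial UMIs held 558 CPM. Spp1, the adhesive glycoprotein osteopontin, was 35.9-fold lower than in other epithelium (31.4 CPM against 1124 CPM) and 17.2-fold lower than in limited epithelium. Wnt7b, a WNT ligand, held 1 UMI in protease gland, against 71.2 CPM in other epithelium. Wfdc2, a small secreted protein with a whey acidic domain from the list of protease inhibitors, was also lower, at 340 CPM against 2223 CPM (ratio 0.153, 0.130 to 0.180), and was chosen after its values were seen.

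Some high ratios rested on 1 barcode. A single protease gland barcode with 25818 UMIs and 198 protease UMIs per 10000 held 802 UMIs of Sprr2f, a cornified envelope gene that oestrogen induces in mouse uterus. That was 99.8% of the Sprr2f UMIs in protease gland, and the ratio to other epithelium was 45.8 with this barcode and 0.121 without it. The same barcode held 165 UMIs of Ltf, the oestrogen-induced iron-binding protein lactotransferrin (88.2%), and 42 UMIs of the lysozyme gene Lyz1 (76.4%). It was also the barcode with most Clu, at 264 per 10000, and with most Scgb3a1 UMIs (48, or 33.3%). Obp2a, an odorant-binding lipocalin, stood at 1015 CPM against 6.90 CPM in other epithelium (ratio 147, 107 to 207), but it came from 8 barcodes, 1 of which held 55.2%. Without that barcode its ratio was 70.2.

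Among the proteases and inhibitors other than the chosen pair, no common direction was seen. Of 15 other epithelial serine proteases compared, 2 were higher and 6 lower in protease gland than in other epithelium, with a median log2 ratio of -0.64. Furin, a proprotein convertase, stood at 85.1 CPM against 32.4 CPM (ratio 2.63, 1.81 to 3.73), and Prss23, a secreted protease, at 56.0 CPM against 23.5 CPM (ratio 2.38, 1.49 to 3.66). The ratio of Prss23 was 1.94 without its leading barcode and 0.914 as a mean of per-barcode CPM, and collagen-rich barcodes held 157 CPM. Klk1, tissue kallikrein, was 9.53-fold lower at 53.8 CPM against 512 CPM, and 1 barcode held 87.5% of what protease gland had (ratio 0.0139 without it). Of 16 protease inhibitors, 4 were higher and 6 lower than in other epithelium, and of 13 set against limited epithelium 4 were higher and 3 lower. Wfdc15b stood at 166 CPM against 49.8 CPM (ratio 3.33, 2.55 to 4.30) and the intracellular serpin Serpinb6a at 128 CPM against 49.5 CPM (ratio 2.58, 1.91 to 3.43), or 6.04 against limited epithelium. Serpina1e, a secreted alpha-1-antitrypsin, held 1 UMI in protease gland and was 85.2-fold lower than the 191 CPM of other epithelium. Slpi, the secretory leukocyte peptidase inhibitor, held 0 UMIs and was at least 3.06-fold lower than in other epithelium.

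Genes of protein folding and secretion were mostly within 2-fold. Of 40 compared, 6 were higher and 1 was lower in protease gland than in other epithelium, with a median log2 ratio of 0.30. Agr2, a protein disulphide isomerase of secretory epithelia, stood apart at 676 CPM (602 to 757) against 4.44 CPM, a ratio of 152 (103 to 235), or 499 against limited epithelium. It came from 20 of the 58 barcodes. Creld2, an endoplasmic reticulum stress protein, stood at 349 CPM against 76.8 CPM (ratio 4.55, 3.77 to 5.47). Hspa5, the main chaperone of the endoplasmic reticulum, stood at 2289 CPM against 2454 CPM (ratio 0.933, 0.875 to 0.994), and Xbp1, the factor of the secretory stress response, at 582 CPM against 611 CPM (ratio 0.954, 0.838 to 1.08). Hspa5 was chosen after its values were seen, and Xbp1 was likewise named outside the naming rule.

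Of 24 ion, bicarbonate and water transport genes, 6 were higher and 8 lower in protease gland than in other epithelium, beside 8.68% and 21.5% over all genes. Car12, a membrane carbonic anhydrase, stood at 652 CPM (579 to 731) against 18.1 CPM (ratio 36.0, 28.9 to 45.3), and Fxyd3, a regulator of the sodium pump, at 2027 CPM against 437 CPM (ratio 4.64, 4.30 to 5.01). Slc26a4, the anion exchanger pendrin, held 1 UMI in protease gland and was 16.6-fold lower, and Scnn1g, a subunit of the epithelial sodium channel, held 0 UMIs against 10.4 CPM. Kcne2, a potassium channel subunit, held 0 UMIs in protease gland, against 63.1 CPM in other epithelium and 82.7 CPM in limited epithelium.

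Of 23 epithelial transcription factors compared, 8 were higher and 5 lower in protease gland than in other epithelium, with a median log2 ratio of 0.19. Against limited epithelium 5 of 22 were higher and 4 lower, with a median of -0.20. Foxa2 stood at 110 CPM (81.2 to 145) against 2.63 CPM, a ratio of 41.7 (23.3 to 78.6), and the ratio to limited epithelium was 36.8. Sox9, a factor of ductal and gland progenitors, stood at 1192 CPM (1092 to 1297) against 135 CPM, a ratio of 8.82 (7.89 to 9.85). Sox17, needed for uterine gland formation in the mouse, stood at 139 CPM against 26.6 CPM (ratio 5.22, 3.83 to 7.03) and was named after its values were seen. Ovol1, a zinc finger factor of epithelial differentiation, held 1 UMI and was 14.8-fold lower. Hoxa10 was 2.67-fold lower than in other epithelium (22.4 CPM against 59.8 CPM). It stood at 1.42 times the level of limited epithelium, with an interval that included 1 (0.649 to 2.81). Of its 10 UMIs, 8 lay in the 10 protease gland barcodes below 100 per 10000, and the other 48 barcodes held 4.70 CPM (0.569 to 17.0), below the 15.7 CPM of limited epithelium. Foxa1 stood at 0 UMIs in protease gland.

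Both steroid receptors stood within 2-fold of other epithelium. Esr1, the oestrogen receptor, stood at 426 CPM (367 to 491) in protease gland against 304 CPM in other epithelium, a ratio of 1.40 (1.2 to 1.6). Pgr, the progesterone receptor, held 13 UMIs, or 29.1 CPM (15.5 to 49.8) against 33.9 CPM, a ratio of 0.860 with an interval of 0.45 to 1.5. Of 19 steroid receptor and responsive genes, 3 were higher and 5 lower than in other epithelium, and of 15 set against limited epithelium 4 were higher and 2 lower. Msx1, a homeobox factor of the receptive uterine epithelium, stood at 199 CPM against 43.6 CPM (ratio 4.58, 3.56 to 5.84). Hsd11b1, which regenerates active glucocorticoid, held 0 UMIs in protease gland against 268 CPM in other epithelium and was at least 39.8-fold lower. C3, the complement component that oestrogen induces in rodent uterus, was 3.81-fold lower at 331 CPM against 1264 CPM, with 70.9% of its UMIs in 1 barcode and a ratio of 0.0776 without it. That barcode was the 1 with 124 Dcn UMIs described above. The 48 barcodes above 100 protease UMIs per 10000 held 96.3 CPM of C3.

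Of the LIF and JAK-STAT genes, 3 of 19 were higher and 4 lower than in other epithelium, and 1 of 17 was higher and 4 lower than in limited epithelium. The 4 of 19 lower lie near the 21.5% over all genes. Lif held 10 UMIs in 5 protease gland barcodes, or 22.4 CPM (10.7 to 41.2) against 10.7 CPM, and the interval of the ratio of 2.10 included 1 (0.960 to 4.11). In the 28 protease gland barcodes with at least 3 epithelial UMIs its ratio was 0.745. Il6st, the shared signalling receptor of LIF and its relatives, stood at 538 CPM against 155 CPM (ratio 3.48, 3.01 to 4.01). Lifr, its partner for LIF, stood at 224 CPM against 275 CPM (ratio 0.814, 0.658 to 0.996) and was chosen after its values were seen. Pim1, a kinase gene induced by STAT factors, was 3.34-fold lower.

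Of the WNT and Notch components more were higher than lower, with 8 of 19 higher and 3 lower and a median log2 ratio of 0.69. Axin2, a feedback target of canonical WNT signalling, stood at 58.2 CPM against 9.04 CPM (ratio 6.44, 3.88 to 10.4). Collagen-rich barcodes held 60.0 CPM of Axin2. Prom1, an apical membrane protein of ducts and glands, stood at 1104 CPM against 189 CPM (ratio 5.85, 5.25 to 6.51). Lgr5, the R-spondin receptor of gut stem cells, held 1 UMI and was 11.3-fold lower, and the WNT receptor Fzd10 was 3.72-fold lower with 3 UMIs. Among 18 growth factor ligands, 3 were higher and 6 lower. Edn1, the peptide endothelin 1, stood at 412 CPM against 51.6 CPM (ratio 7.98, 6.62 to 9.61), with 47.3% of its UMIs in 1 barcode and a ratio of 4.50 without it. Tgfb3 stood at 29.1 CPM against 6.90 CPM (ratio 4.22, 2.08 to 8.01), or 2.73 without its leading barcode, and collagen-rich barcodes held 67.0 CPM. Tgfb1 held 0 UMIs, against 31.2 CPM in other epithelium and 2.98 CPM in limited epithelium.

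**Figure D4:**
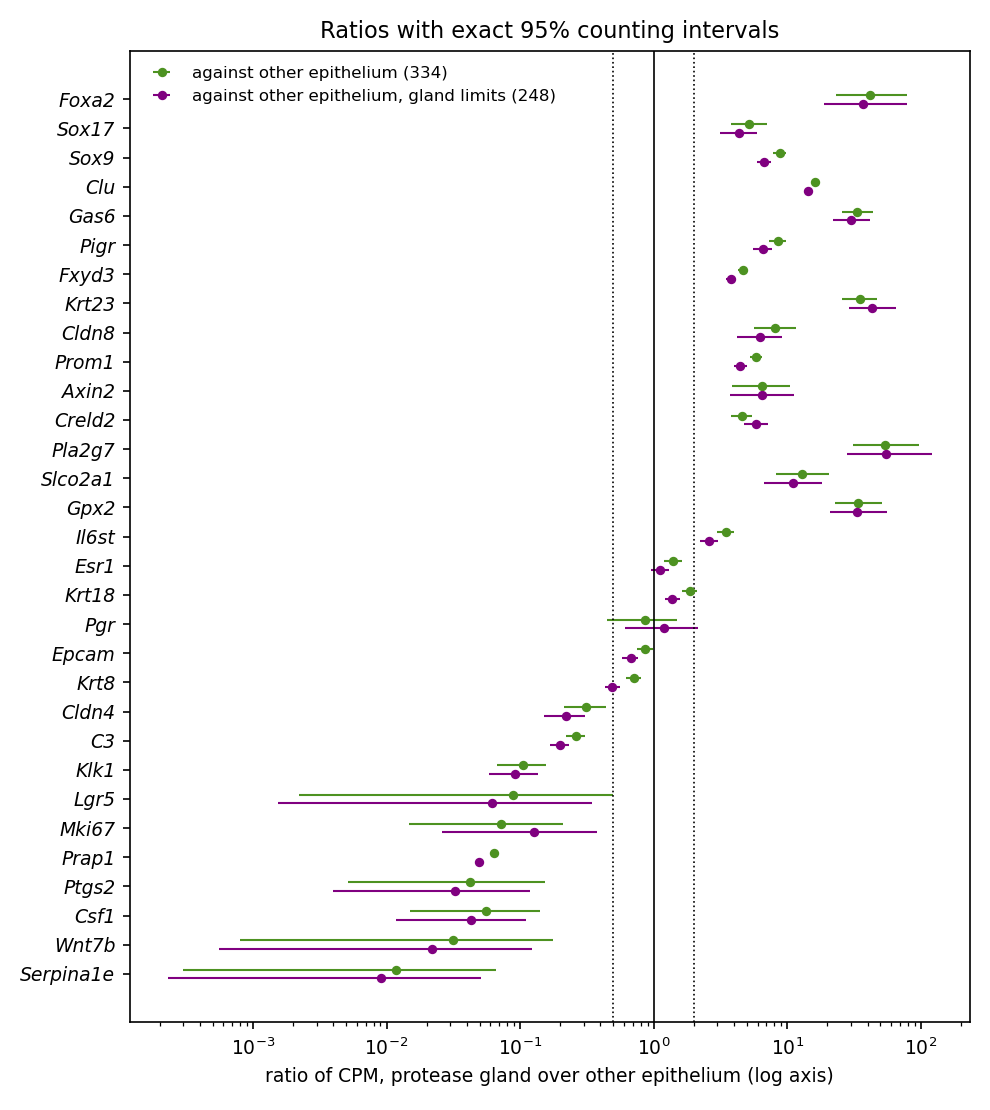
Ratio of CPM in protease gland over other epithelium (334 barcodes, green) and over limited epithelium (248 barcodes, purple) for 31 genes, on a log axis, with exact 95% counting intervals, a solid line at 1 and dotted lines at 2-fold. Foxa2 lies at 41.7 and 36.8, Esr1, Krt18, Pgr and Epcam lie within 2-fold of 1 in both, and Serpina1e, Wnt7b, Csf1 and Ptgs2 lie at 0.0553 or lower.

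Among the 7 general epithelial markers, Krt18 alone stood above other epithelium, at less than 2-fold. Epcam stood at 515 CPM against 593 CPM (ratio 0.868, 0.756 to 0.992), Cldn3 at 166 CPM against 182 CPM (ratio 0.908, 0.708 to 1.15) and Cdh1 at 219 CPM against 304 CPM (ratio 0.722, 0.583 to 0.885). These genes defined the comparator, so their ratios follow in part from its rule. Cldn4 was 3.22-fold lower than in other epithelium, with 44.1% of its UMIs in 1 barcode and a ratio of 0.180 without it. Krt8 stood at 551 CPM against 777 CPM (ratio 0.709, 0.621 to 0.806), Krt18 at 641 CPM against 344 CPM (ratio 1.86, 1.64 to 2.11), and Krt19 was 2.42-fold lower. Of 32 keratin and junction genes, 6 were higher and 8 lower than in other epithelium, and of 31 set against limited epithelium 3 were higher and 11 lower. Krt23 stood at 361 CPM against 10.4 CPM (ratio 34.8, 25.9 to 47.4) in 32 protease gland barcodes, and Cldn8 at 112 CPM against 13.8 CPM (ratio 8.11, 5.60 to 11.6). Krt17 held 0 UMIs in protease gland against 32.4 CPM and was at least 4.82-fold lower.

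Of 10 luminal epithelium genes, 2 were higher and 4 lower. The 2 higher genes were Sprr2f and Ltf, both carried by the single barcode described above, and the ratio of Ltf was 1.79 without it. Hdc, which makes histamine, was 14.9-fold lower with 3 UMIs, and Anxa8 held 0 UMIs. Mucin genes and their glycosylation enzymes were mostly within 2-fold, with 1 of 12 higher and 3 lower, and 0 of 9 higher and 1 lower against limited epithelium. Muc1, the main cell surface mucin of uterine epithelium, stood at 82.9 CPM against 32.9 CPM (ratio 2.52, 1.72 to 3.59), and at 1.71 times limited epithelium. Without its leading barcode the ratio to other epithelium was 1.62.

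Of 11 prostaglandin and eicosanoid genes compared, 4 were higher and 3 lower in protease gland than in other epithelium. Pla2g7, which breaks down platelet-activating factor, stood at 150 CPM against 2.79 CPM, a ratio of 53.7 (31.2 to 97.6), in 26 barcodes. Slco2a1, the prostaglandin transporter, stood at 89.6 CPM against 6.90 CPM (ratio 13.0, 8.20 to 20.5). Ptgs1, the cyclooxygenase most tissues express steadily, stood at 222 CPM against 19.7 CPM (ratio 11.2, 8.53 to 14.8) and was chosen after its values were seen. Ptgs2, the inducible cyclooxygenase, held 2 UMIs and was 23.5-fold lower, and the receptor gene Ptger2 held 0 UMIs.

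Of 19 chemokine and epithelial defence genes, 2 were higher and 11 lower in protease gland, with a median log2 ratio of -1.38 against other epithelium and -0.51 against limited epithelium. Lyz1 and the mucosal chemokine gene Cxcl17 (108 CPM against 14.5 CPM, ratio 7.43, 5.12 to 10.7) were the 2 higher. Without its leading barcode the ratio of Cxcl17 was 4.19. The cytokine genes Il1a, Csf1 and Cxcl5 held 1, 4 and 1 UMIs and were 18.6-fold, 18.1-fold and 15.7-fold lower. Cxcl14 was 2.14-fold lower than in other epithelium but 9.07-fold higher than in limited epithelium (175 CPM against 19.3 CPM), so its direction turned with the comparator. Of 12 antigen presentation genes, 3 were higher and 0 lower. Pigr, which carries immunoglobulin A across epithelia, stood at 638 CPM against 75.3 CPM (ratio 8.48, 7.29 to 9.85), and H2-T23, a class I gene, at 112 CPM against 27.8 CPM (ratio 4.03, 2.88 to 5.56).

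Cell division genes were low. Of 26 compared, 0 were higher and 24 lower in protease gland than in other epithelium, with a median log2 ratio of -3.78. Against limited epithelium, which lacks the Ptprc and Tdo2 barcodes, 18 could be compared, 1 was higher and 12 were lower, with a median of -2.41. Mki67, a marker of cycling cells, held 3 UMIs in protease gland, or 6.72 CPM (1.39 to 19.6), against 94.2 CPM in other epithelium and 53.2 CPM in limited epithelium. Cdk1 held 0 UMIs against 27.1 CPM and 17.9 CPM. Mki67 was named outside the naming rule. The gene higher than in limited epithelium was Cdkn1b, an inhibitor of cyclin-dependent kinases, at 82.9 CPM against 39.1 CPM, and its ratio to other epithelium was 1.76 (1.22 to 2.49). Of 15 cell death and clearance genes, 0 were higher and 8 lower (0 and 5 of 14 against limited epithelium), among them Cdkn1a, the p53-induced cell cycle inhibitor, at 5.39-fold lower. Of 20 immediate early and heat shock genes, 0 were higher and 3 were lower (0 and 5 against limited epithelium), with Atf3 3.02-fold and Dnajb1 2.90-fold lower.

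Metabolic genes were for the most part within 2-fold. Of 24 metal and redox genes, 6 were higher and 5 lower than in other epithelium, and of 23 set against limited epithelium 5 were higher and 2 lower. Gpx2, the glutathione peroxidase of gut epithelium, stood at 199 CPM against 5.92 CPM (ratio 33.7, 22.6 to 51.1), with 39.3% in 1 barcode and a ratio of 22.1 without it, and Mt2, a metallothionein, was 5.78-fold lower. Of 23 polyamine, creatine, glycogen and sugar genes, 0 were higher and 8 lower (0 and 5 of 22 against limited epithelium). Ckb, brain creatine kinase, held 1 UMI and was 16.9-fold lower, while Gatm, which makes a creatine precursor, was 12.3-fold lower than in other epithelium and stood at 1.13 times limited epithelium (0.561 to 2.07). Of 9 retinoid and steroid metabolism genes, 1 was higher and 3 lower (0 and 3 of 6 against limited epithelium). Aldh1a2, which makes retinoic acid, was 14.5-fold lower with 3 UMIs, and Srd5a1, a steroid reductase, was 14.2-fold lower with 6 UMIs. Dhrs9, a retinol dehydrogenase, was the 1 higher, with 8 UMIs and a ratio of 2.37 whose interval included 1 (0.966 to 5.07).

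The 10 genes with the highest ratio to other epithelium among those with at least 200 UMIs were, beside those above, completed by Fabp5, a fatty acid-binding protein, at 325 CPM against 9.04 CPM (ratio 35.9, 26.2 to 49.9). Of the 10 with the lowest ratio, all at 0 UMIs in protease gland, 6 were lymphocyte genes (Gzmg, Tnfrsf9, Runx3, Sh2d2a, Nkg7 and Trbc1). These 6 held 411 to 1570 UMIs each in other epithelium and 0 to 10 in limited epithelium, so their low ratio rests on the 86 barcodes over the Ptprc or Tdo2 limit. Il1f6, an interleukin 1 family cytokine gene, stood at 57.5 CPM in other epithelium and 78.1 CPM in limited epithelium. Gas6, a ligand of TAM receptor kinases, was counted 33.4-fold higher than in other epithelium (423 CPM against 12.7 CPM), but collagen-rich barcodes held 380 CPM, and the ratio to all other barcodes was 5.41.

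How the barcodes varied among themselves was read in the 22 with at least 5000 UMIs and at least 100 protease UMIs per 10000. In these Prss29 ran from 75.7 over a median of 762 to 2398 per 10000, and Prss28 from 9.42 over 285 to 1234. Prss28 made up 6.88% to 50.4% of the pair, with a median of 27.3%. Both proteases were found in all 48 barcodes above 100 per 10000 and in 52 of all 58. Spink1 ran from 0 over 102 to 2398 per 10000: 2 barcodes held at least 1000, 10 held less than 100 and 2 held 0 among 9201 and 15629 UMIs. Clu ran from 3.17 over 42.3 to 264, and Sox9 from 0.924 over 9.72 to 53.3, with both found in all 22.

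Within these 22 barcodes Agr2 ranked much as the proteases did, and Spink1 did so less closely. The relation was not computed in the 26 shallower barcodes above 100 per 10000. Agr2 stood at 101 CPM there, against 806 CPM in the 22. Agr2 was at 0 in 8 of the 22 barcodes, among them all 7 with the lowest protease level (792 per 10000 or less). Across the 22 barcodes, Spearman's rho was 0.82 between Prss28 and Prss29, 0.84 between the summed proteases and Agr2, 0.34 between the proteases and Spink1, and 0.64 between Spink1 and Car12. With the proteases it was -0.51 for Krt8, -0.50 for Krt18, -0.33 for Sox9, -0.08 for Clu and 0.24 for total UMIs. These values are descriptions: the points are barcodes of 1 library that the protease level chose. Each gene is also a share of a total that the proteases help to fill. Foxa2 was found in 12 of the 22, and its highest count, 11 UMIs, came from a barcode with only 137 protease UMIs per 10000. The same barcode held 519 Prap1 UMIs and 15 Cldn4 UMIs, or 41.1% and 44.1% of those in protease gland.

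**Figure D5:**
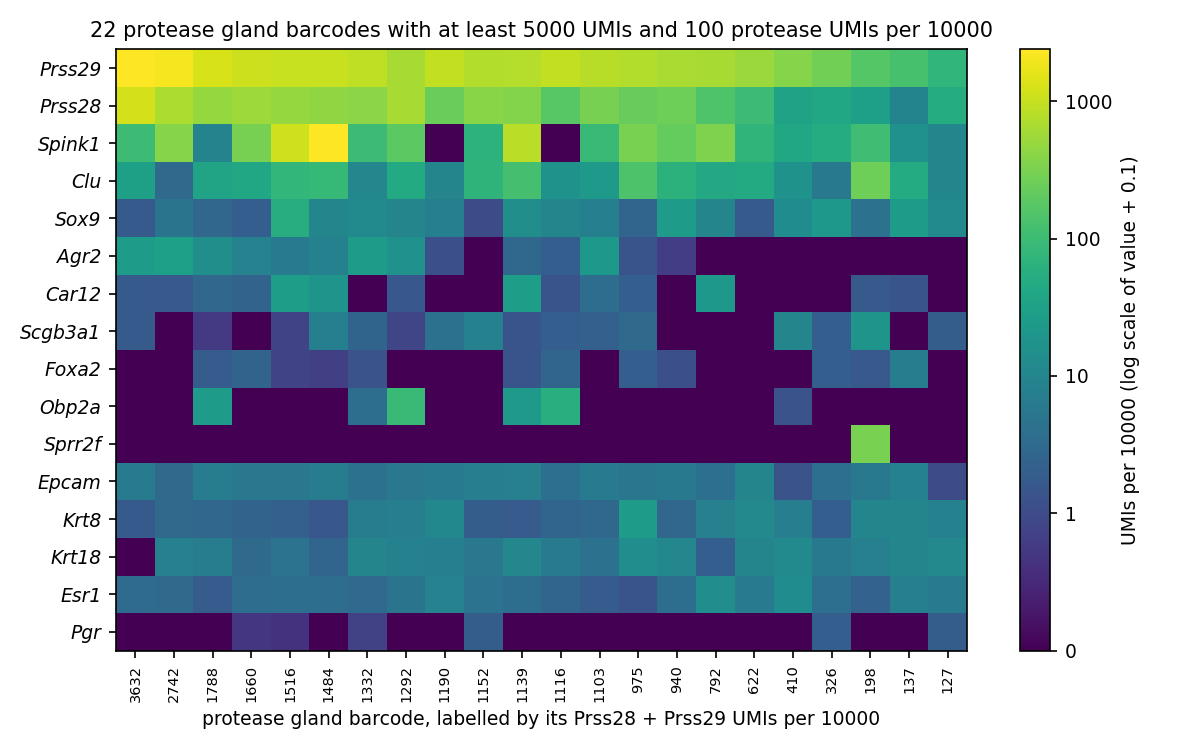
UMIs per 10000 (colour, log scale of value plus 0.1) of 16 genes in the 22 protease gland barcodes with at least 5000 UMIs and at least 100 protease UMIs per 10000, from the highest protease level (3632, left) to the lowest (127, right). Agr2 is at 0 in the 7 rightmost barcodes, Sprr2f is seen in 1 barcode, and Epcam is found in all 22.

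Deep barcodes tended to have a lower mitochondrial share. The 22 deep barcodes had a median mitochondrial share of 2.38%, against 14.2% in the 26 shallower ones above 100 protease UMIs per 10000. Prss29 stood at 81257 CPM in the deep and 69867 CPM in the shallower barcodes, Spink1 at 47048 and 15962 CPM, Agr2 at 806 and 101 CPM, Clu at 6920.0 and 1945 CPM, and Sox9 at 1308 and 889 CPM. Of all UMIs in protease gland, 83.9% came from the 23 barcodes with at least 5000 UMIs, so the CPM values above describe mainly these. The part of depth and mitochondrial share in these differences was not tested.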

How the data were processed

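The authors deposited UMI counts per gene and barcode in a sparse matrix. Cell Ranger 4.0.0 is the software named, per the file headers, and mm10 is the build, per the submitters' processing notes. Neither the settings for calling cells nor the gene annotation is named in the labels or headers. The deposited matrix held 32287 features, which were summed to 32247 symbols. Each UMI counts 1 transcript by its 3′ end, so levels were not scaled by length.

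Barcodes were chosen as described in the opening, and counts were summed over each group and divided by its total (CPM). Levels have exact Poisson 95% intervals, ratios of sums exact conditional binomial intervals and shares exact Clopper-Pearson intervals, all for counting error only. Genes needed at least 50 UMIs over both sides, and a call is a ratio of 2-fold or more. Where a side held 0 UMIs, an "at least" fold uses 3 counts over that side. Barcodes are not replicates, so no p-value is given. The ratio step was tested on simulated counts.

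The barcodes, the 23 gene lists (611 genes, 608 in the matrix) and the tests were chosen with earlier results of these data known. The text names 17 genes always named and the 10 highest and 10 lowest ratios among genes with at least 200 UMIs. It also names up to 2 genes per list and direction past 2-fold, with exceptions stated. Xbp1, Mki67 and Foxa1 were also named outside this rule. Not every gene the rule took is named. Alternatives changed the thresholds, the comparator, the totals, the averaging and the minimum of UMIs. Scrublet, as in scanpy 1.11.5 with an expected rate of 5%, marked 13 barcodes as doublets, 0 of them protease gland and 3 other epithelium. None was removed, so undetected doublets may remain. Collagen-rich barcodes held 0 epithelial UMIs and at least 5 UMIs of Col1a2, Col3a1 and Dcn, and Ptprc barcodes held 0 epithelial and at least 2 Ptprc UMIs. Python 3.11.15, numpy 2.4.6, scipy 1.17.1, pandas 2.3.3 and matplotlib 3.10.9 were used.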

Additional observations from a re-analysis of the deposited data

Results flagged for a closer look

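Protease transcript was also found in barcodes outside the comparisons. Among 950 barcodes that failed the limits on detected genes or mitochondrial UMIs, 19 held at least 100 Prss28 and Prss29 UMIs per 10000. They had a median of 848 UMIs, a median mitochondrial share of 20.8%, a median of 756 protease UMIs per 10000 and a median of 23.6 Spink1 UMIs per 10000. At the threshold of 20 per 10000, 50 barcodes failed the quality limits, 26 on genes alone, 6 on mitochondrial share alone and 18 on both. The feature sfGFP-Myc, which no comparison used, held 25 UMIs in 16 barcodes, at most 5 in 1 barcode and 0 in protease gland. Protease gland held 446464 of the 16848794 UMIs of the library, so a 0 there says little at this level. There are no control samples for this library.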

How the results depend on the processing

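The number of protease gland barcodes was 38 with at most 10% mitochondrial UMIs, 34 with at least 1000 detected genes and 28 with at least 3 epithelial UMIs. With no minimum of UMIs per gene, 2648 genes were higher and 6880 lower than in other epithelium, and 2056 higher and 10276 lower than in all other barcodes. With at least 200 UMIs these counts were 250, 898, 523 and 2428. Against limited epithelium, added after the data had been seen, 1316 genes were lower. Over 122 named genes and 1460 alternatives, 1252 ratios stayed within the counting interval of the reported value, 200 moved beyond it, and 8 called ratios crossed 1, in 7 genes. Of 598 counts over lists, 498 stayed within 1.5 times the reported count. The 8 were Lif at 0.745 with protease gland barcodes of at least 3 epithelial UMIs, and, as a mean of per-barcode CPM, Prss23 at 0.914, Hoxa10 at 1.39 and Dhrs9 at 0.856. Against limited epithelium they were Hoxa10 at 1.42, Gatm at 1.13 and Cxcl14 at 9.07, and the intervals of Hoxa10 and Gatm there included 1. The last of the 8 was Sprr2f at 0.121 without its leading barcode. For Sprr2f, and for the 3 genes set against limited epithelium, the change follows from the barcodes left out. For the other alternatives the cause was not tested. No paired analysis was possible because 1 library was analysed. With 58 barcodes and 446464 UMIs, genes of low level in protease gland rest on few counts, and the variation between animals cannot be read from 1 library.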
